A study of Homo sapiens with 8 samples.

Results

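The levels of 9 genes that pathologists and drug developers use as lineage and surface markers of ovarian cancer were examined in MDAH and SKOV3 cells with and without silencing of SFPQ. They are the transcription factors PAX8, SOX17 and WT1, the estrogen receptor ESR1, the mucins MUC16 and MUC1, the secreted protein WFDC2 and the membrane-anchored proteins FOLR1 and MSLN. They were taken by name, and every non-control probe whose RefSeq accession belongs to one of them was used, which gave 14 of 28174 named probes and 9 of 20503 named genes. Both lines come from epithelial ovarian cancer, MDAH (MDAH-2774) and SKOV3, and each is a single established line. For each line, 2 arrays held cells in which SFPQ was not silenced (controls) and 2 held cells that carried a lentiviral shRNA against SFPQ (sh-SFPQ#2 on one array, sh-SFPQ#3 on the other). The labels name both controls of a line as control-shRNA cells, whereas the methods speak of parental cells and of cells with sh-ctrl. All 8 arrays lay on 1 slide, where the position of an array and its group cannot be told apart.

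PAX8 and SOX17 are transcription factors of the Müllerian epithelium and stay on in most serous ovarian carcinomas, and WT1 is a zinc-finger factor that pathologists stain for together with PAX8. ESR1 encodes the nuclear receptor for estradiol. MUC16 and MUC1 are large glycoproteins that span the membrane and shed their outer part, WFDC2 is a small secreted protein measured in serum, and FOLR1, which binds folate, and MSLN, which binds MUC16, are held on the cell surface by a lipid anchor. FOLR1 and MSLN are targets of antibody drugs.

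A level is the log2 of the processed signal of a probe minus that of the 75th percentile of its array, so that a difference of 1 between arrays is a 2-fold difference, and levels of different probes cannot be compared. The 75th percentile lay between 244 and 496 intensity units, lowest on the MDAH sh-SFPQ#3 array, and 47.7% to 57.0% of the probes on each array were called well above background. A probe not well above background gives only an upper bound, and a fold change against it is written as "at least". A gene that was dim outside 1 group or 1 line entered the test only through the arrays on which it was high, which favours a call. This holds for WT1, for MUC16, for the second MUC1 probe, for the ESR1 probes A_23_P309739 (10 spots) and A_33_P3379356, and for genes of the related lists that were dim in 1 line. Of the 9 markers, 5 (PAX8, MUC1, WFDC2, FOLR1 and SOX17) were well above background on all 8 arrays, 3 (WT1, MUC16 and ESR1) on some, and MSLN on none, so that 8 could be tested. Each group holds 2 arrays (n = 2). The p-values and intervals rest on the spread between arrays within groups, pooled over all 4 groups in 1 fit. A test in 1 line therefore also carries the spread of the other line. In a silenced group 1 array had sh-SFPQ#2 and the other sh-SFPQ#3, so the choice of shRNA enters that spread. For the 2 controls of a line no source states separate cultures, and by the labels their spread may be technical. By the methods, which list parental and sh-ctrl cells, it would also hold the effect of the control vector.

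SFPQ, the silenced gene and a nuclear RNA-binding splicing factor, read 3.64 and 3.91 in MDAH controls and 2.45 (sh-SFPQ#2) and 2.10 (sh-SFPQ#3) in silenced MDAH cells. In SKOV3 it read 4.84 and 4.66 in controls and 3.01 and 2.48 in silenced cells. In either line both silenced values were below the 2 control values. The fall was -1.50 ± 0.23 (log2, SE, adjusted p = 0.0328) in MDAH and -2.01 ± 0.23 (adjusted p = 0.0299) in SKOV3, and the fall in each line missed the threshold without either MDAH control, either SKOV3 control or the sh-SFPQ#3 array of that line (adjusted p of 0.0645 to 0.218 in MDAH and 0.0677 to 0.118 in SKOV3). It missed the threshold too with no filter on dim probes, with the arrays of 1 line alone and by the methods' t-test in both lines, and with median centring in MDAH (adjusted p of 0.0510 to 0.429).

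Before any silencing the 2 lines differed mainly in the levels of these markers. PAX8, MUC1, WFDC2, FOLR1 and SOX17 were well above background in the controls of both lines, and WT1 in MDAH controls alone. Of the 8 markers tested, 7 passed between MDAH and SKOV3 controls. Of these, 3 (PAX8, WT1 and WFDC2) were higher in MDAH and 3 (SOX17, FOLR1 and MUC1) higher in SKOV3, whereas MUC16 was not well above background in the controls of either line, and ESR1 split by probe. The lines are far apart in general, since 57.5% of the 15550 genes tested passed the same threshold, 26.8% higher in MDAH and 30.7% higher in SKOV3. On SFPQ silencing no marker passed within either line, where 2.03% of all genes passed in MDAH and 0.997% in SKOV3. In the average of both lines 1 marker passed (MUC16, where 5.66% of all genes did, 2.02% with a rise), a call that rests on 1 group with signal above background and was kept in 6 of 16 alternatives.

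**Figure D1:**
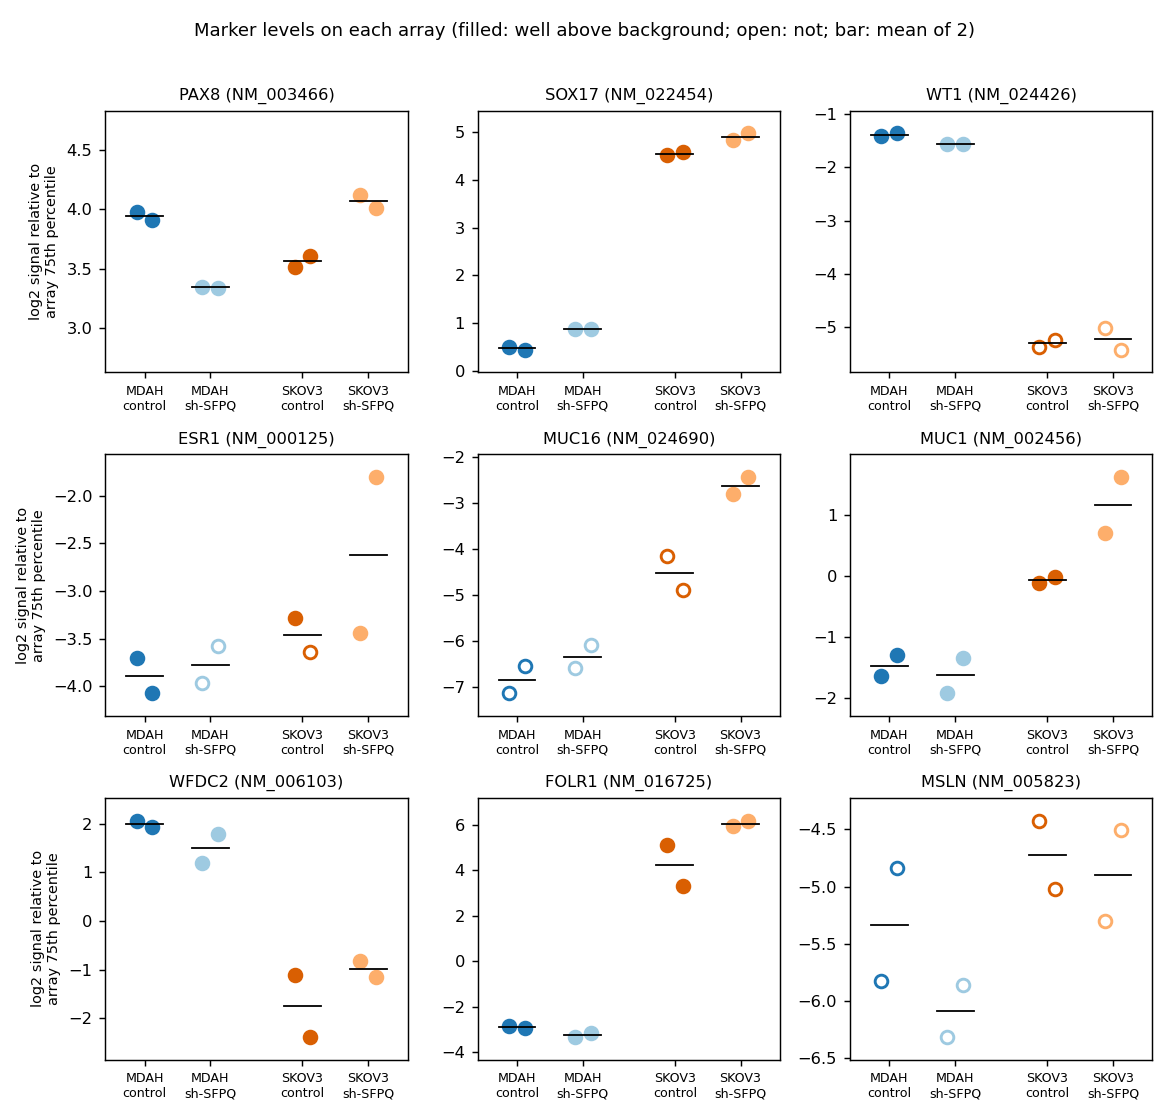
Level of each marker on the 8 arrays (y axis, log2 signal minus that of the array's 75th percentile, brightest probe of the gene, separate scale for each gene), by line and silencing. Filled points are well above background, open points are not, and bars are means of 2 arrays. SOX17, FOLR1 and WFDC2 separate the lines by 3.74 to 7.10 log2 units in controls, WT1 is filled on the MDAH arrays alone, and MUC16 is filled on the silenced SKOV3 arrays alone.

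Among the lineage factors, PAX8 was abundant on all 8 arrays. It read 3.97 and 3.91 in MDAH controls, 3.35 and 3.34 in silenced MDAH cells, 3.52 and 3.61 in the control SKOV3 arrays and 4.12 and 4.01 in the silenced ones. The 4 pairs did not overlap, so that silenced MDAH cells stood lowest and silenced SKOV3 cells highest. The controls differed by 0.38 ± 0.14 (adjusted p = 0.0492), a 1.30-fold higher level in MDAH that missed the threshold whenever any 1 of the 8 arrays was left out and when arrays were centred on their medians instead (0.23, adjusted p = 0.273). On silencing the difference was -0.60 (95% interval -0.92 to -0.27, adjusted p = 0.0835) in MDAH and 0.50 (0.18 to 0.83, adjusted p = 0.131) in SKOV3. With the normexp background correction the MDAH value passed (-0.67, adjusted p = 0.0416). The test of the difference between lines gave -1.10 ± 0.19 (adjusted p = 0.129), and 0.0965% of all genes passed that test.

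SOX17, a SOX-family factor of the Müllerian duct and endoderm, was much higher in SKOV3. It read 0.49 and 0.44 in MDAH controls and 0.88 and 0.89 in silenced MDAH cells. In SKOV3 it read 4.52 and 4.58 in controls and 4.83 and 4.97 in silenced cells. The SKOV3 controls stood 16.9-fold above the MDAH controls (-4.08 ± 0.14 for MDAH minus SKOV3, adjusted p = 2.98e-06). The silenced arrays lay above both controls in each line, by 0.41 (0.08 to 0.74) in MDAH and 0.35 (0.02 to 0.68) in SKOV3, with adjusted p of 0.153 and 0.231, and 0.0682 in the average of 0.38.

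WT1, read by a probe with 10 spots, was well above background on the 4 MDAH arrays and on none of the 4 SKOV3 arrays. It read -1.41 and -1.36 in MDAH controls, -1.55 and -1.56 in silenced MDAH cells, and between -5.42 and -5.03 on the SKOV3 arrays. The MDAH controls were at least 6.07-fold higher than the SKOV3 controls (measured means -1.39 and -5.30, adjusted p = 8.20e-06). On silencing, WT1 differed by -0.17 in MDAH, with a 95% interval from -0.58 to 0.24 (adjusted p = 0.584).

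ESR1 had 3 probes that did not tell the same story. The probe A_23_P309739, printed on 10 spots, was not well above background on any MDAH array (-6.96 to -5.61) and was so on every SKOV3 array, at -0.10 and -1.34 in controls and -0.94 and -2.65 in silenced cells. By this probe SKOV3 controls were at least 17.8-fold higher, or 11.6-fold without SKOV3 control 1 and 27.4-fold without SKOV3 control 2 (measured means -6.81 in MDAH and -0.72 in SKOV3, adjusted p = 0.000279 among all probes, of which 56.5% passed). The probe A_33_P3379356, which carries the accession of another transcript (NM_001122742), read -6.92 and -6.92 in MDAH controls and -2.09 and -4.99 in SKOV3 controls (adjusted p = 0.0109). Of these 4 arrays it was well above background on SKOV3 control 1 alone, and no fold is given. The probe A_24_P383478, the brightest by its mean over arrays, read -3.70 and -4.07 in MDAH controls and -3.29 and -3.64 in SKOV3 controls (difference -0.43 ± 0.50, adjusted p = 0.493), well above background on 1 of the 2 SKOV3 controls. Which transcripts each probe binds was not tested here.

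**Figure D2:**
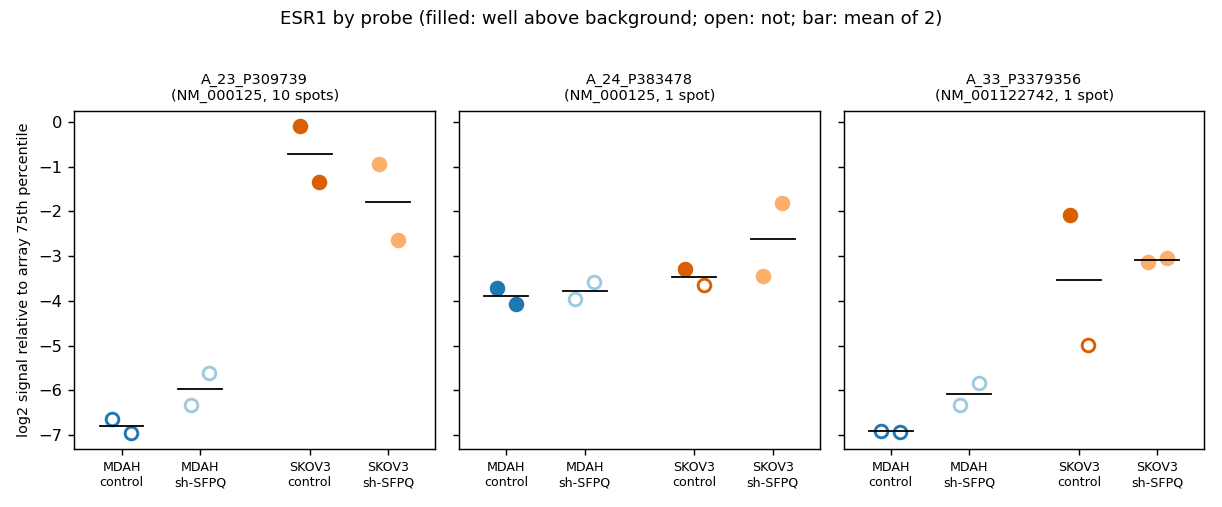
Level of ESR1 by each of its 3 probes (y axis, log2 signal minus that of the array's 75th percentile) on the 8 arrays. Filled points are well above background, open points are not, and bars are means of 2 arrays. The 10-spot probe separates the lines, from -6.81 in MDAH controls to -0.72 in SKOV3 controls, while the middle probe lies between -4.07 and -3.29 on the control arrays of both lines.

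The ESR1 probes also differed in direction on silencing of SKOV3 cells. The difference was 0.84 by A_24_P383478, which rested on the sh-SFPQ#3 array (-1.81, against -3.44 for sh-SFPQ#2), 0.45 by A_33_P3379356 and -1.08 by the 10-spot probe, with adjusted p of 0.392, 0.781 and 0.383. Without the SKOV3 sh-SFPQ#2 array, the first probe passed at 1.66 (adjusted p = 0.0428) in SKOV3 and at 0.88 (adjusted p = 0.0428) in the average, and without the sh-SFPQ#3 array the SKOV3 value was 0.020 and did not pass.

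MUC1 stood higher in SKOV3 controls than in MDAH controls, and both mucins had their highest values on the silenced SKOV3 arrays, where neither passed the test by its main probe. MUC1 by its main probe (NM_002456) read -1.65 and -1.31 in MDAH controls, -1.93 and -1.34 in silenced MDAH cells, -0.12 and -0.02 in the control SKOV3 arrays and 0.70 (sh-SFPQ#2) and 1.62 (sh-SFPQ#3) in the silenced ones. MUC1 was 2.65-fold higher in SKOV3 controls than in MDAH controls (-1.40 ± 0.34, adjusted p = 0.0110), a call lost without MDAH control 1 (adjusted p = 0.0723) or SKOV3 control 2 (adjusted p = 0.0520). On silencing, MUC1 differed by 1.23 (0.42 to 2.04, adjusted p = 0.136) in SKOV3, where the arrays did not overlap, and by -0.16 (-0.97 to 0.65, adjusted p = 0.804) in MDAH, where they did. With the replicate number of the arrays as a block in the fit, the SKOV3 value passed (1.23, adjusted p = 0.0328). Without the SKOV3 sh-SFPQ#2 array the SKOV3 value was 1.69 and passed (adjusted p = 0.0451), and without the sh-SFPQ#3 array it was 0.77 (adjusted p = 0.455).

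A second MUC1 probe, with the accession NM_001044392 of another transcript, was well above background on the 2 silenced SKOV3 arrays and on no other. It read -4.34 and -4.43 in the control SKOV3 arrays and -3.11 and -2.41 in the silenced ones, at least 2.34-fold higher (fitted difference 1.63, adjusted p = 0.0445 among all 20933 named probes that passed the filter, of which 1.16% were called), or 1.84-fold without the sh-SFPQ#3 array. The call gives no separate support, since the probe passed the filter only through these 2 arrays. On the MDAH arrays it read between -4.82 and -4.37.

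MUC16 by the probe A_23_P5211 was likewise well above background on the 2 silenced SKOV3 arrays alone. It read -4.15 and -4.89 in SKOV3 controls, -2.80 and -2.43 after silencing in SKOV3, and between -7.15 and -6.10 on the MDAH arrays. Silenced SKOV3 cells were at least 2.59-fold higher than their controls (measured means -2.62 and -4.52, fitted difference 1.90 ± 0.33, adjusted p = 0.0644), and the fitted difference passed under quantile normalization (1.87, adjusted p = 0.0470) and in the deposited values. In the average of both lines the fitted value was 1.20 ± 0.24 (adjusted p = 0.0395), but the other 3 groups were not well above background, so that 1.20 is no measured fold. Its MDAH part turned from 0.50 to -0.18 under quantile normalization. The call was lost without any 1 of 6 of the 8 arrays (all but the sh-SFPQ#2 array of each line), under quantile normalization (adjusted p = 0.0580), in the deposited values (0.0578), with no filter on dim probes (0.0689) and by the methods' t-test (0.143). The controls of the lines passed as different (adjusted p = 0.00116), but neither was well above background and no fold is given. The other MUC16 probe, A_33_P3313110, was not well above background on any array.

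Both mucins read highest on the silenced SKOV3 arrays, as PAX8, SOX17 and FOLR1 also did, and the promoters of the 2 mucins are shown. They run from 250 bases before to 50 bases after the start of a RefSeq transcript, in the direction of the gene (GRCh38.p14, both on the minus strand), MUC1 from chr1:155192866-155193165 and MUC16 from chr19:9065702-9066001, and are the first of 2 entries for each gene. Capitals mark the GC box GGGCGG on either strand, overlapping matches included, and the TATA box TATAAA.
MUC1: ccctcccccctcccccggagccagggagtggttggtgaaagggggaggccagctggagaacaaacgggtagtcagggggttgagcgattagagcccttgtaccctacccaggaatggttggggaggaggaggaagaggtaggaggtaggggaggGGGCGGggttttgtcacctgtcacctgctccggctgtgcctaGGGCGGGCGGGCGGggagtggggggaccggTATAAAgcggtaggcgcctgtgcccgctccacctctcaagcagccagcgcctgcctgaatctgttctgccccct
MUC16: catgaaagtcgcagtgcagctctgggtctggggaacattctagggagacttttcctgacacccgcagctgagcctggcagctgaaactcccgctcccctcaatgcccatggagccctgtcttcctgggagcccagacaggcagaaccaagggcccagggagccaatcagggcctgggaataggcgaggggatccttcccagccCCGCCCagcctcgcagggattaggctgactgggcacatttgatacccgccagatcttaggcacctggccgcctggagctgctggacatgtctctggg
The MUC1 promoter held 4 GC boxes, 3 of which overlap, and 1 TATA box, and the MUC16 promoter 1 GC box, on the opposite strand, and no TATA box. Of all 35116 RefSeq promoters of this length, 45.0% held the GC box and 11.5% the TATA box. The SOX core ACAAT (27.4% of promoters), the WT1 and EGR site GCGTGGGCG (0.795%) and the palindromic estrogen response element (0.057%) matched neither promoter on either strand. The PAX8 promoter, not shown, held 0 GC boxes and 0 TATA boxes, and SOX17 and FOLR1 had no promoter entry. A link between these motifs and the levels was not tested.

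WFDC2, the secreted marker, was high in MDAH and low in SKOV3 by both of its probes. The brighter probe read 2.06 and 1.94 in MDAH controls, 1.20 and 1.80 in silenced MDAH cells, -1.10 and -2.39 in the control SKOV3 arrays and -0.82 and -1.16 in the silenced ones. MDAH controls stood 13.4-fold above SKOV3 controls (3.74 ± 0.42, adjusted p = 0.000398), or 20.9-fold without SKOV3 control 1 and 8.58-fold without SKOV3 control 2. The second probe, well above background on 1 of the 2 SKOV3 controls, gave 3.53 ± 0.30 (adjusted p = 0.000124). On silencing, WFDC2 differed by -0.50 (-1.50 to 0.50) in MDAH, where both silenced arrays lay below both controls, and by 0.76 (-0.25 to 1.76) in SKOV3, where the arrays overlapped, with adjusted p of 0.503 and 0.365.

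FOLR1 showed the widest gap between the lines among the markers measured in both. It read -2.85 and -2.92 in MDAH controls and -3.33 and -3.17 in silenced MDAH cells. In SKOV3 it read 5.12 and 3.32 in controls and 5.92 and 6.17 in silenced cells. SKOV3 controls stood 137-fold above MDAH controls (-7.10 ± 0.51 for MDAH minus SKOV3, adjusted p = 6.06e-05), or 73.7-fold without SKOV3 control 1 and 256-fold without SKOV3 control 2. The 2 SKOV3 controls differed from each other by more than either silenced array differed from the first of them. Their SD was 1.27, against 0.05 in MDAH controls and 0.12 in silenced MDAH cells. Through the pooled fit it also widens the MDAH interval. On silencing, FOLR1 differed by 1.83 (0.60 to 3.06, adjusted p = 0.141) in SKOV3 and by -0.37 (-1.59 to 0.86, adjusted p = 0.700) in MDAH, and it passed in SKOV3 without SKOV3 control 1 (2.73, adjusted p = 0.0305) and in the average as well (1.18, adjusted p = 0.0317). Without SKOV3 control 2 the SKOV3 value was 0.93 (adjusted p = 0.185).

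MSLN was not well above background on any array. Its probe read -5.83 and -4.84 in MDAH controls, -6.32 and -5.87 in silenced MDAH cells, -4.42 and -5.02 in the control SKOV3 arrays and -5.30 and -4.51 in the silenced ones, and no difference was tested. MSLN signal was therefore not detectable above background in either line with these arrays.

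**Figure D3:**
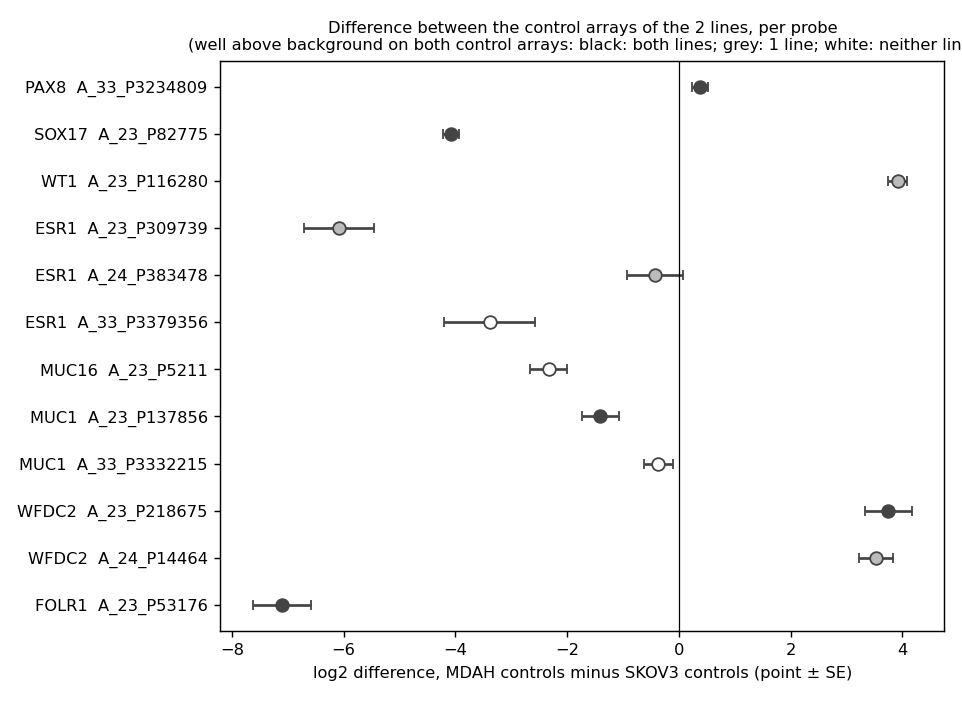
Difference between the control arrays of the lines for the 12 marker probes that passed the filter on dim probes (x axis, log2, MDAH minus SKOV3, point ± SE, 2 against 2 arrays). Black points had both lines well above background on both control arrays, grey points 1 line and white points neither. PAX8 lies near 0 (0.38) and FOLR1 farthest from it (-7.10).

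In the order of their levels, SKOV3 silenced cells stood highest for PAX8, SOX17, MUC16, MUC1 and FOLR1, and MDAH controls for WT1 and WFDC2. In silenced SKOV3 cells, both arrays lay above both controls for 5 of the 8 tested markers (PAX8, SOX17, MUC16, MUC1 and FOLR1) and below them for 0, where 25.9% of all genes tested were higher without overlap and 32.1% lower. MUC16 is among the 5 although it entered the test through these arrays. In silenced MDAH cells, 4 markers lay below both controls without overlap (PAX8, WT1, WFDC2 and FOLR1) and 1 above (SOX17), where 21.4% of all genes were lower and 35.6% higher. With normexp the MDAH differences of WT1 (0.044) and FOLR1 (0.11) turned sign. Among the 5 markers measured on all 8 arrays, the difference of silencing between the lines was negative (MDAH below SKOV3) for PAX8, MUC1, WFDC2 and FOLR1, where 40.8% of all genes were negative, and 0.059 for SOX17, whose sign turned under quantile normalization and normexp. WT1, MUC16 and ESR1 had groups not well above background, so that their line differences are fitted values without a measured direction. Of the 8, the line difference passed for 0 by limma, with 4 at an unadjusted p under 0.05 (PAX8, MUC16, MUC1 and FOLR1), where 14.9% of all genes had one. The other counts of 0, within each line, came with 2 markers at that unadjusted level in MDAH and 5 in SKOV3, against 23.1% and 19.5% of all genes (and 26.4% in the average of both lines). MUC16 is counted in the 4 for the line difference and in the 5 for SKOV3. It entered the test only through the silenced SKOV3 arrays, so its place in these counts gives no separate support.

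**Figure D4:**
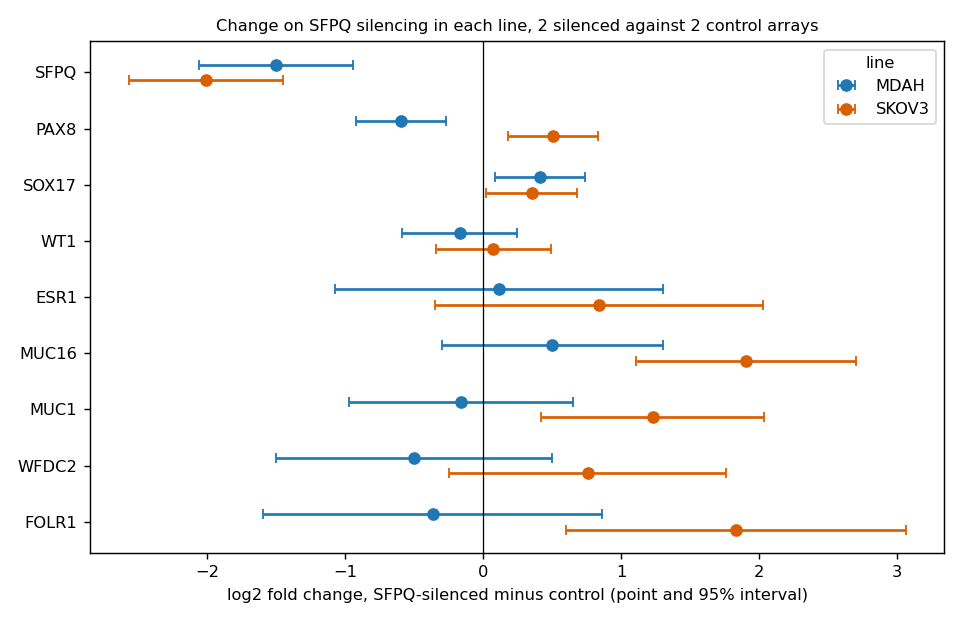
Change of SFPQ and the 8 tested markers on SFPQ silencing (x axis, log2 fold change of silenced minus control arrays, point and 95% interval, 2 against 2 arrays) in MDAH and SKOV3 cells. SFPQ fell in both lines (-1.50 and -2.01). Among markers well above background on all 8 arrays, the SKOV3 points of FOLR1 (1.83) and MUC1 (1.23) lie farthest to the right, the MUC16 points are fitted values against control arrays not well above background, and those of PAX8 lie on opposite sides of 0.

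Related genes gave the setting of these levels. Of 14 epithelial markers, 13 were tested and 11 were well above background on all 8 arrays, among them the keratins KRT7, KRT8, KRT18 and KRT19 and the adhesion molecule EPCAM, so both lines carried the epithelial keratins, while the epithelial transcription factor GRHL2 was not well above background on any array. Between the controls, 9 epithelial markers were higher in MDAH and 1 lower, with a median of 1.88 against -0.05 over all genes. KRT19 (4.75 ± 0.34, adjusted p = 5.65e-05) and EPCAM (3.64 ± 0.26, adjusted p = 6.12e-05) had the widest gaps towards MDAH among the epithelial genes well above background on all control arrays, and KRT7 (-4.24 ± 0.15, adjusted p = 3.64e-06) was higher in SKOV3. CDH1, the epithelial cadherin, was at least 9.60-fold higher in MDAH controls (adjusted p = 0.00189). None of the 13 passed on silencing in either line or in the average, with 1 at an unadjusted p under 0.05 in MDAH, 4 in SKOV3 and 2 in the average.

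Of 17 other factors and genes of the Müllerian and ovarian lineage, 14 were tested, and 6 were higher in MDAH controls and 6 in SKOV3 controls. PAX2, the closest relative of PAX8 on this list, read 4.07 in MDAH controls and -4.77 in SKOV3 controls on average (fitted difference 8.84, adjusted p = 0.000509), where it was well above background on 1 of the 2 SKOV3 controls. CDKN2A, which encodes cell-cycle inhibitors, was higher in MDAH (5.35), and the zinc-finger gene MECOM (-7.08) and the Wnt ligand WNT7A (-6.62) were higher in SKOV3, as was the homeobox gene LHX1 (-3.68). On silencing of MDAH cells MECOM fell by at least 1.62-fold (means -3.36 and -5.53, adjusted p = 0.0169). In the average of both lines MECOM passed as well (adjusted p = 0.0421), but in 1 of 16 alternatives only, with adjusted p up to 0.572 (normexp, with the sign turned to 0.13), and 0 genes of the list passed in SKOV3, where 0 had an unadjusted p under 0.05. Under the alternatives in MDAH, MECOM passed in 10 of 17, and with normexp its MDAH value was -0.071 (adjusted p = 0.835).

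Of 18 other surface antigens, 14 were tested, and 10 were higher in SKOV3 controls and 3 in MDAH controls (median -2.62). The phosphate carrier SLC34A2 was at least 204-fold higher in MDAH controls. The receptor kinase gene ERBB2 (-4.15), the tissue factor gene F3 (-6.72) and CD24 (-6.39) were higher in SKOV3, and STEAP1 (4.67) and LYPD1 (2.25) in MDAH. None of the 14 passed on silencing in either line or in the average, with 4 at an unadjusted p under 0.05 in MDAH, 2 in SKOV3 and 4 in the average. Of 14 other mucins, 11 were on the array, and MUC2, MUC4 and MUC6 were the 3 tested. Their average changes on silencing lay between -0.06 and 0.16, and none passed in any comparison, nor had an unadjusted p under 0.05.

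Of 16 other secreted markers, 9 were tested, and the 6 kallikreins on the list were not well above background on any array. SPP1, which encodes osteopontin, was at least 72.8-fold higher in SKOV3 controls, MMP7 (-5.04) and the protease inhibitor SLPI (-4.07) were also higher there, and the growth factor gene GDF15 (4.48) and WFDC3 (1.13), of the same family as WFDC2, were higher in MDAH. On silencing their median was 0.79 in SKOV3 (-0.04 over all genes) and -0.80 in MDAH (0.10 over all genes). The MDAH median is the fitted value of MMP7. That gene was not well above background on the silenced MDAH arrays, so -0.80 is no measured change. In either line 0 passed, with 4 in SKOV3 and 2 in MDAH at an unadjusted p under 0.05.

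Of 12 folate receptors, carriers and enzymes, 11 were tested. FOLR3, a secreted relative of FOLR1, rose on average from 0.67 to 2.41 when SKOV3 cells were silenced (1.75, adjusted p = 0.0448), and it passed in 4 of 17 alternatives in SKOV3 and in 9 of 16 in the average (1.04). It was lower in MDAH controls (-4.96, adjusted p = 1.59e-05), as FOLR1 was. FOLR1 and FOLR3 are near relatives, and whether the probes bind both was not tested. The reduced folate carrier SLC19A1, the proton-coupled carrier SLC46A1 and the enzymes TYMS, FPGS, GGH, MTHFD1, SHMT1 and SHMT2 did not pass on silencing, and their average changes lay between -0.26 and 0.32.

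Of 14 estrogen receptor targets, 13 were tested. The progesterone receptor PGR was not well above background on any array, including the SKOV3 arrays with ESR1 signal. Between controls 7 were higher in MDAH, led by the ligand gene AREG (7.87) and, at least 40.3-fold, STC2, and 4 in SKOV3, among them the scaffold gene PDZK1 (-3.09) and SIAH2 (-1.66). On silencing PDZK1 fell by at least 2.70-fold in MDAH (means -2.62 and -4.64, adjusted p = 0.0146, passing in 13 of 17 alternatives there, not with normexp, which gave -0.28 and adjusted p = 0.429, and in 7 of 16 in the average) and 0 passed in SKOV3, with 4 at an unadjusted p under 0.05. Of the 11 estrogen receptor partners (coactivators, corepressors and other receptors), 3 were higher in MDAH controls and 2 in SKOV3 controls, among them the corepressor NCOR1 (1.08) and the coactivator NCOA1 (-2.87), and none passed on silencing in either line or the average, with 1 at an unadjusted p under 0.05 in MDAH, 2 in SKOV3 and 2 in the average.

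**Figure D5:**
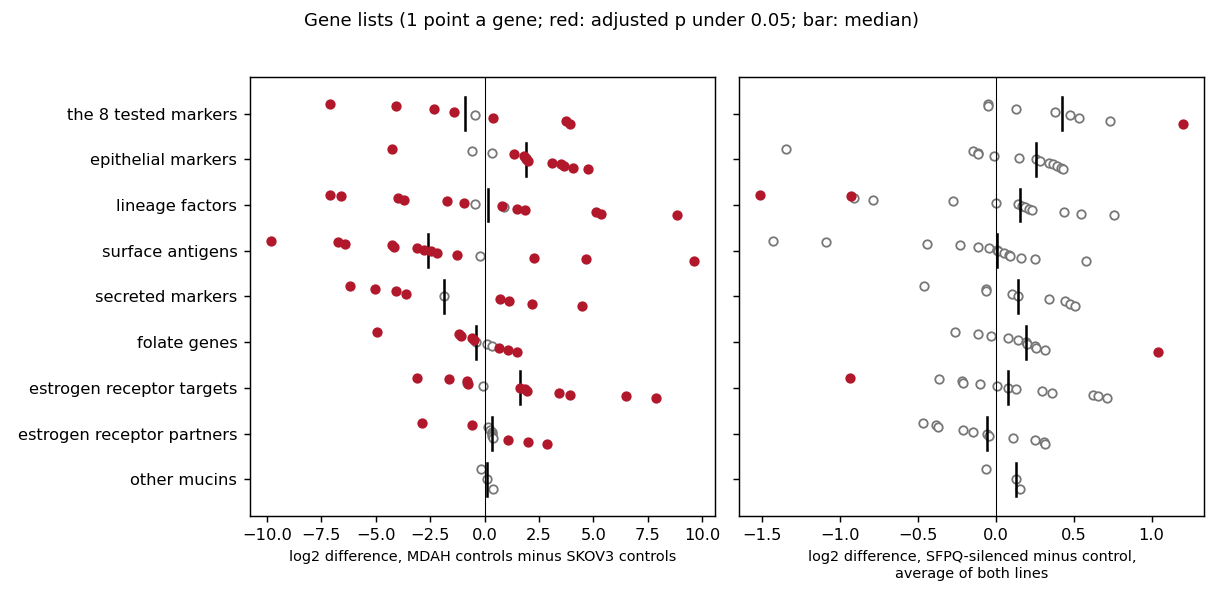
Log2 difference of each tested gene by list, between the controls of the lines (left, MDAH minus SKOV3) and on SFPQ silencing averaged over both lines (right, silenced minus control). Each point is a gene, red points passed an adjusted p of 0.05 and bars are medians. On the left most points are red, on both sides of 0, and on the right the red points include MUC16 (a fitted value, with 3 of 4 groups not well above background), MECOM, FOLR3 (1.04) and PDZK1.

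The genes whose levels ran closest to a marker over the 8 arrays were found among about 5371 genes that were well above background on all arrays and varied (SD of at least 0.5). SOX17 was followed by LGALS3 (Pearson's r = 0.9998), ZNF264 and CSRNP2, and FOLR1 by ZFP36L2 (0.998), CCDC14 and PCDHGA2. WFDC2 was followed by MDGA1 (0.991), NUDT14 and IRS2, and MUC1 by PRR22 (0.991), TNFRSF25 and SLC25A34. PAX8, with the smallest spread of the 5 (SD 0.31), was followed by the complement gene C3 at 0.919, then MEGF6 (0.833) and FAM238C (0.816). The arrays fall into 2 lines, so for SOX17, FOLR1, WFDC2 and MUC1 a high r describes a shared gap between the lines. It is no measure of a shared response. PAX8 had only a small gap between controls (0.38) and differed by -0.60 in MDAH and 0.50 in SKOV3 on silencing. What its r reflects was not tested.

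Markers of other cells gave a mixed picture. Of 30 genes on the array from 5 lists (mesothelial, stromal, granulosa, leukocyte and endothelial), 17 were tested, 7 were well above background on all 8 arrays (UPK3B, COL1A1, AMH, PTPRC, CD14, CD68 and CDH5) and 10 on none. The T cell gene CD3E, the collagen gene COL3A1, the fibroblast genes LUM, PDGFRB and FAP and the granulosa cell genes NR5A1, FSHR, CYP19A1 and STAR were not well above background on any array. COL1A1, of the stromal list, was well above background on all 8 arrays and was higher in silenced cells in the average (1.18 ± 0.20, adjusted p = 0.0296, passing in 9 of 17 alternatives). It was the 1 gene to pass there among the 3 stromal genes tested. DCN, another of the 3, was well above background in SKOV3 alone, where it differed by 1.88 on silencing (adjusted p = 0.0964). THY1, the last of the 3, was also well above background in SKOV3 alone. It went the other way there, by -0.86 (adjusted p = 0.256). The summed stromal signal, relative to the 75th percentile, was 0.63 and 0.78 in MDAH controls, 1.29 and 1.69 in silenced MDAH cells, 0.65 and 0.44 in the control SKOV3 arrays and 0.91 and 0.99 in the silenced ones, with the COL1A1 probe the brightest of the list on each array. The sum was higher on the silenced than on the control arrays of both lines. MUC16 and MUC1 read highest on the silenced SKOV3 arrays. In MDAH, MUC1 differed by -0.16 on silencing and MUC16 was not well above background. Whether the sum and the levels of the mucins are linked was not tested.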

How the data were processed

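RNA of 8 cell samples was labelled with Cy3 and hybridised to single-colour Agilent arrays. The authors deposited the scanner output, an intensity for each spot on a linear scale with background subtracted (Feature Extraction 10.7.3.1 per the labels, 11.5.1.1 per the file headers), and a table of log2 values, which the authors had quantile-normalised and centred on the median of each probe (r over 0.999 with the recomputed values on each array; used as an alternative). Control spots and outlier flags were removed, repeated spots were averaged on the log2 scale, and each array was scaled to its 75th percentile. Probes were named through RefSeq accessions (GRCh38.p14 table), and the brightest probe stood for a gene. A gene entered the test when its probe was well above background on both arrays of 1 group or more, and all such genes were tested in 1 limma 3.58.1 fit over all 4 groups in R 4.3.3 (Benjamini-Hochberg, adjusted p under 0.05), and a second fit held all probes. Precision is limited by the 2 arrays in a group. Promoters came from RefSeq, with entries for 6 of the 9 genes.

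The rule for named genes took SFPQ, the 9 markers and all of their probes, from each other list the 2 highest and 2 lowest changes and genes that passed, and the 3 genes closest to each marker measured on all arrays. The markers, lists and tests were chosen with earlier results of these data known. The fit was tested on simulated data. Alternatives were other scalings, background correction, filters, probe choices, tests and designs, and leaving out each array. A few genes of the lists enter the counts but are not reported here by name.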

Additional observations from a re-analysis of the deposited data

How the results depend on the processing

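The gaps between the controls of the lines held best. For WT1, FOLR1 and SOX17 they passed under every alternative run, and for WFDC2 under all but the methods' t-test (adjusted p = 0.0611), while PAX8 passed in 6 of 18. The size of the WT1 gap ran from 1.37 to 3.98 (3.91 in the main fit), so its bound of at least 6.07-fold belongs to the main processing. Leaving out single arrays left 5 to 6 markers and 6759 to 9320 genes past the threshold (8941 with all arrays), and the methods' t-test left 4 markers. Where 1 array of a group remained, it was assumed to vary like the other groups.

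On silencing, the counts of genes moved with the arrays used. Without single arrays 9 to 1091 genes passed in MDAH (316 with all), 13 to 595 in SKOV3 (155), 32 to 1686 in the average (880) and 0 to 182 for the difference between lines (15), and 0 to 0 markers passed in MDAH, 0 to 2 in SKOV3, 0 to 2 in the average and 0 to 0 for the difference. The lowest counts came without MDAH control 1 (9, 13, 32 and 0) or MDAH control 2 (14, 13, 60 and 0), and fewer than 1 gene in 1.5 also remained in the average without SKOV3 control 1 (192), SKOV3 control 2 (231), SKOV3 sh-SFPQ#3 (356) or MDAH sh-SFPQ#3 (456). In MDAH 1091 genes passed without MDAH sh-SFPQ#2 and 184 without MDAH sh-SFPQ#3, and in SKOV3 595 passed without SKOV3 sh-SFPQ#2, 79 without SKOV3 sh-SFPQ#3, and 21 and 60 without SKOV3 control 1 and 2. The cause was not tested.

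With normexp 498 genes passed in MDAH, 460 in SKOV3 and 9 for the difference, and 1 marker in MDAH (PAX8). With quantile normalization 29 genes passed for the difference, with the deposited values 28 and with median centring 23, and under both of the first 1 marker passed in SKOV3 (MUC16) and 0 in the average. Without a filter on dim probes, which raises the number of tests, 39 genes passed in SKOV3 and 370 in the average, with 0 markers in the average. With genes above background on all 8 arrays, which leaves out MUC16, 114 passed in MDAH and 0 for the difference, with 0 markers in the average. With only the arrays of a line 143 genes passed in MDAH and 0 in SKOV3. The methods' t-test passed 0 genes in MDAH, 0 in SKOV3, 59 in the average and 0 for the difference after Benjamini-Hochberg adjustment, with 0 markers in the average, and 1961, 1758, 3588 and 2282 genes at an unadjusted p under 0.05. Centring on medians moved the share of rises among called genes from 20.6% to 37.3% in MDAH and from 35.7% to 52.5% in the average, normexp gave 31.1% in MDAH, and the median of all genes moved from 0.10 to 0.21 in MDAH. For the difference between lines, the share of positive values among called genes was 40.0%, and 11.1% with normexp and 28.6% with the deposited values.

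No source says what the control numbers mark, and the numbers of the silenced arrays name the shRNA, the same in both lines. The deviations of the arrays from their group means correlated across lines at 0.078 for control number 1 and 0.363 for shRNA number 2 (over 15550 genes). With the replicate number as a block 862 genes passed in MDAH, 688 in SKOV3, 1770 in the average and 0 for the difference, and 1 marker in SKOV3 (MUC1, adjusted p = 0.0328), and PAX8 no longer passed between controls (adjusted p = 0.0680).

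Signs turned for differences that had not passed. Under quantile normalization and in the deposited values, MUC16 in MDAH was -0.18, WT1 in SKOV3 -0.023, and the line difference of SOX17 -0.076 and -0.081. With normexp WT1 (0.044), MUC1 (0.018) and FOLR1 (0.11) turned in MDAH, WT1 in SKOV3 (-0.083), WFDC2 in the average (-0.032), and the line differences of WT1 (0.13), SOX17 (-0.037) and ESR1 (0.11). MECOM, which had passed, turned to 0.13 in the average with normexp. With the median over probes MUC1 in MDAH was 0.022, ESR1 in SKOV3 -0.028, WFDC2 in the average -0.0042 and the line difference of ESR1 0.85, and ESR1 then passed between controls (-3.92, adjusted p = 0.000677). Leaving out single arrays gave -0.45 to 0.13 for MUC1 and -0.080 to 0.31 for ESR1 in MDAH, -0.12 to 0.27 for WT1 in SKOV3, -0.15 to 0.052 for WT1 and -0.19 to 0.45 for WFDC2 in the average, and -0.013 to 0.13 for SOX17 and -1.54 to 0.094 for ESR1 in the line difference. Signal over background limits WT1 and ESR1 (in part of the arrays), MUC16 and MSLN. No fit with the slide as a block was possible, since 1 slide held all arrays.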

Other observations

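Markers of other cell types separated the lines in both directions. FOXL2, a transcription factor of granulosa cells, had mean levels of 0.64 in the MDAH and -6.07 in the SKOV3 controls, at least 24.7-fold higher in MDAH (adjusted p = 1.40e-05 by limma). CALB2, which encodes calretinin and is a mesothelial marker, was at least 12.9-fold higher in MDAH controls (adjusted p = 2.54e-05), and LRRN4, another mesothelial gene, stood at -0.24 in MDAH and -4.59 in SKOV3 controls (adjusted p = 0.00111, well above background on 1 of the 2 SKOV3 controls). On the same mesothelial list UPK3B was higher in SKOV3 (-1.82, adjusted p = 0.00164). FOXL2, CALB2, LRRN4 and INHA entered the test only through the MDAH arrays, on which they were high, which favours a call. Of the 7 granulosa cell genes, NR5A1, FSHR, CYP19A1 and STAR were not well above background on any array, AMH was well above background on all 8 and higher in SKOV3 controls (-0.71, adjusted p = 0.0293), and INHA was at least 1.78-fold higher in MDAH controls. On silencing, FOXL2 differed by -0.18 in MDAH and CALB2 by -0.52, and neither passed (adjusted p = 0.774 and 0.383).

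The transcription factors GATA4 and GATA6 ran in opposite directions between the lines. GATA6 stood at 2.42 in SKOV3 controls and -1.56 in MDAH controls (-3.98, adjusted p = 3.30e-05), whereas GATA4 stood at -2.09 in MDAH controls and -3.96 in SKOV3 controls (1.87, adjusted p = 0.000555), well above background on 1 of the 2 SKOV3 controls.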
